A study of Rattus norvegicus with 24 samples.

Results

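The miR-106b-25 cluster is a group of microRNAs (miRNAs) that are cut from a single intronic transcript. Its members on the rat array are rno-miR-106b, rno-miR-93 and rno-miR-25, and they were chosen by exact name among the non-control probes. These are 3 of the 677 miRNAs measured. All 3 were detected on all 24 arrays, as were 132 of the 677, and all 3 were therefore among the 210 miRNAs tested.

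A miRNA pairs with messenger RNAs chiefly through its seed, the stretch of bases near its 5′ end, and lowers the output of the transcripts it pairs with. The miR-106b-25 cluster lies in an intron of Mcm7, a gene for a subunit of the helicase that opens DNA for replication, and it is known as a paralog of the cluster that holds miR-17 and miR-92a. Its members are known for restraining the cell cycle inhibitor p21 and the pro-apoptotic factor Bim, and the cluster is expressed in dividing blood cells.

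The RNA came from PBMC, the lymphocytes and monocytes that a density gradient separates from blood. Every array stands for its own blood sample of a female Wistar rat, with 2 arrays in each of 12 groups. Healthy animals (NOCIA) were sampled before therapy, at 1 h and at 34 days. Animals with collagen-induced arthritis (CIA), immunised with bovine type II collagen in Freund's adjuvant, were sampled before therapy. Arthritic animals were sampled at 1 h and at 34 days under mechanical stimulation (MS, a rotated subcutaneous needle), methotrexate (MTX, injected into the peritoneum), saline placebo on the schedule of MTX (PLA), or isoflurane as the anaesthetic in place of ether (ANE). All animals were shaved. The model covers 1 strain and 1 sex, and no array shows the same animal at 2 times. In PBMC, fewer cells of a type and less RNA per cell cannot be told apart.

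The mature sequences of the 3 members are shown first because the results compare them with relatives that share a seed. They are given 5′ to 3′ from RefSeq (rat build GRCr8), with the seed (bases 2 to 8) in capitals. The array names rno-miR-106b, rno-miR-93 and rno-miR-25 stand for the arms that RefSeq calls rno-miR-106b-5p, rno-miR-93-5p and rno-miR-25-3p.
rno-miR-106b: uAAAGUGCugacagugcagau
rno-miR-93: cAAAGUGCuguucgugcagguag
rno-miR-25: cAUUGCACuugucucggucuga
miR-106b and miR-93 share a seed and have the same base at 16 of the 21 positions compared from the 5′ end. miR-25 has another seed and has the same base as miR-106b at 5 of 21 positions and as miR-93 at 9 of 22.

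Of the array names, 378 matched a mature miRNA of RefSeq, and 10 of these carry a seed of the cluster. The 7 that are not members are shown because they could act on the same sites as the cluster. The first 3 share the seed of miR-106b and miR-93, and the other 4 share the seed of miR-25.
rno-miR-17-5p: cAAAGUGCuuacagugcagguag
rno-miR-20a: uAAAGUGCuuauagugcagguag
rno-miR-20b-5p: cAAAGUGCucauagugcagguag
rno-miR-92a: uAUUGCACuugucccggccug
rno-miR-92b: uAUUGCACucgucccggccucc
rno-miR-32: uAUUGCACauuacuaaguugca
rno-miR-363: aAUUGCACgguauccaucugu
miR-20b-5p has the same base as miR-93 at 20 of 23 positions, miR-17-5p has the same base as miR-106b at 18 of 21, and miR-92a has the same base as miR-25 at 18 of 21. How far the array probes separate such close sequences was not tested.

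In GRCr8 the 3 genes lie on the minus strand of chromosome 12, in the order Mir106b, Mir93, Mir25 in the direction of transcription. They span 494 bases (chr12:22156641-22157134), and all 3 lie inside Mcm7 (chr12:22155921-22163320). RefSeq places mature miR-106b-5p at chr12:22157103-22157123, miR-93-5p at chr12:22156894-22156916 and miR-25-3p at chr12:22156652-22156673. The hairpins of Mir93 (chr12:22156844-22156930) and Mir25 (chr12:22156641-22156724) are shown with both mature arms in capitals because both arms have probes on the array.
Mir93: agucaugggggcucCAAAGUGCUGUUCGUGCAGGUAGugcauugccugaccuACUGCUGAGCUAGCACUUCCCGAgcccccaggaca
Mir25: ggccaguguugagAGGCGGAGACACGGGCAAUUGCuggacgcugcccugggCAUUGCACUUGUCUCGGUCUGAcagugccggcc
In Mir93 the measured member is the first arm, and in Mir25 it is the second.

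The members have no promoter of their own in RefSeq, and the start of Mcm7 is shown because the 3 share it as host gene. The window that the table gives for Mcm7 (chr12:22163129-22163428, minus strand, 300 bases) is printed below. Capitals mark the matches to the E2F motif, searched on both strands as TTTCCCGC, TTTCGCGC, TTTGCCGC and TTTGGCGC.
Mcm7 promoter window: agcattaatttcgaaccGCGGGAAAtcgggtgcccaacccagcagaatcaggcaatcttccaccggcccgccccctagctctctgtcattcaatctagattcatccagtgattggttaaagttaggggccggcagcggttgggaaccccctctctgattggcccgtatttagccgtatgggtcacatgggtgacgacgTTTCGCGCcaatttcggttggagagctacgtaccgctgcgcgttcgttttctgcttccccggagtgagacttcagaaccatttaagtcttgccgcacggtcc
The window holds 2 matches, at positions 18 and 199 from its 5′ end. The start that the table uses lies inside the outer bounds of Mcm7 given above, so the last 192 of the 300 bases, with the second match, fall within the gene, and the first match lies before it. The motif occurs in 2.14% of the 33469 promoter windows of this length. The letters CACGTG (the E-box) are not in this window, and 6.42% of all windows hold them.

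An array detected between 145 and 207 miRNAs, without saturated spots. Total signal over the detected miRNAs was lowest at 137544 and highest at 519917 on MS replicate 1 at 34 days, and MS replicate 1 exceeded MS replicate 2 at both times (371061 against 186549 at 1 h, 519917 against 305171 at 34 days). The arrays lay on 3 slides of 8, and each group lay on 1 slide. The 34-day arrays of MS, MTX and PLA lay on slide 1 beside ANE of 1 h, slide 2 held the 2 groups sampled before therapy beside NOCIA and ANE of day 34, and slide 3 held NOCIA, MS, MTX and PLA at 1 h. In a comparison across slides the slide and the group cannot be told apart.
Of 15 marker miRNAs listed, 14 were on the array and 9 were detected on all 24 arrays, among them the 5 of leukocytes (miR-142-3p, miR-142-5p, miR-150, miR-342-3p and miR-146a). miR-451 and miR-144 of red cells and miR-126 of platelets were also detected on all 24 arrays, and muscle miR-1 and miR-133a and brain miR-124 on none. Liver miR-122 was detected on 9 arrays and reached 8.96 (log2). It had a mean of 7.74 in NOCIA before therapy and was not detected in CIA before therapy, where it was at least 32.4-fold lower (limma adjusted p 0.00208).

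Over the 24 arrays the 3 members stayed within a narrow range. All levels are log2 intensities after scaling each array to a common 75th percentile, and levels of different miRNAs are not compared with each other, since their probes differ. miR-106b lay between 9.94 and 10.71 with a median of 10.27, a 1.71-fold range. miR-93 lay between 8.88 and 9.75 with a median of 9.21, a 1.83-fold range. miR-25 lay between 9.38 and 10.48 with a median of 10.05, a 2.15-fold range. The SD over the 24 arrays was 0.20 for miR-106b, 0.20 for miR-93 and 0.25 for miR-25, against a median of 0.31 over the 132 miRNAs detected on every array. Counted from the smallest SD, the members held places 30, 31 and 41 of 132. The SD within groups was 0.20, 0.18 and 0.21 for miR-106b, miR-93 and miR-25. Differences within groups held 53.4%, 41.7% and 38.2% of the sum of squares over the 24 arrays, and differences between the 12 groups held the rest. Means of so few arrays also differ through the spread between arrays, so these shares are not by themselves a sign of a group effect.

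**Figure D1:**
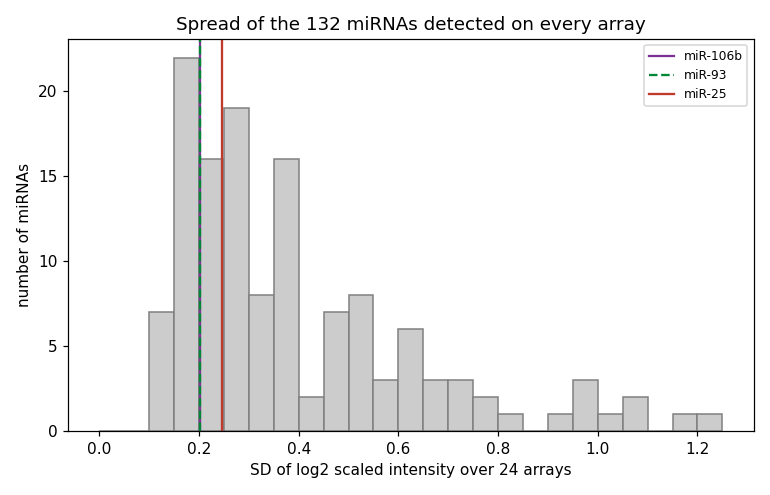
Histogram of the SD of log2 scaled intensity over the 24 arrays (x axis) for the 132 miRNAs detected on every array (y axis, number of miRNAs). The vertical lines mark miR-106b (0.20), miR-93 (0.20, dashed) and miR-25 (0.25), all below the median of 0.31, while the most variable miRNA reached 1.23.

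The 2 probes of each member, with 10 spots each, gave like profiles. Pearson's r between the 2 probes over the 24 arrays was 0.95 for miR-106b, 0.83 for miR-93 and 0.88 for miR-25. All 480 spots of each member were well above background.

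The order of the 12 group means had the same 2 groups at its head in all 3 members. For miR-106b the means ran from 10.57 in ANE at 34 days and 10.54 in NOCIA at 1 h down to 10.13 in MS at 1 h. For miR-93 they ran from 9.44 in NOCIA at 1 h and 9.42 in ANE at 34 days down to 8.90 in MS at 1 h. For miR-25 they ran from 10.30 in ANE at 34 days and 10.29 in NOCIA at 1 h down to 9.77 in MS at 34 days and 9.71 in MS at 1 h. The group means thus covered a 1.36-fold range for miR-106b, a 1.45-fold range for miR-93 and a 1.50-fold range for miR-25. No step between neighbours in any of the 3 orders was as large as the SD within groups: the largest steps were 0.10, 0.17 and 0.17. The arrays of neighbouring groups overlapped at all but 1 of the 11 steps for miR-106b, all but 2 for miR-93 and all 11 for miR-25. Neighbours in a sorted order lie close by construction. These steps and overlaps were not set against those of other miRNAs, so they show nothing particular to the members. The 2 groups at the head also had the highest summed levels of the red cell markers miR-451 and miR-144 (mean log2 of 14.74 in ANE at 34 days and 14.48 in NOCIA at 1 h), and the part of red cells in the order was not tested.

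**Figure D2:**
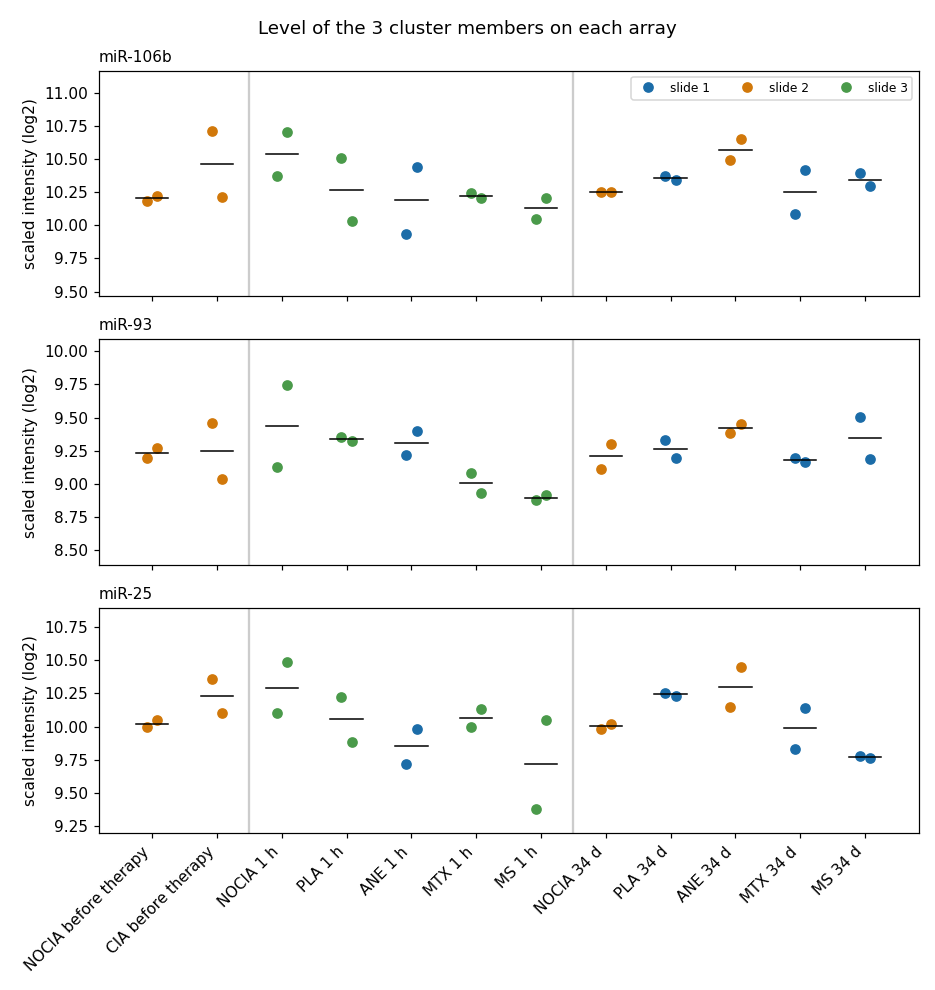
Scaled intensity (log2, y axis) of miR-106b, miR-93 and miR-25 on each of the 24 arrays, by group (x axis), where points are arrays coloured by slide and bars are means of the 2 arrays. The MS arrays at 1 h include the lowest level of miR-93 (8.88) and of miR-25 (9.38), and all 3 members were highest on average in NOCIA at 1 h or ANE at 34 days.

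No member passed the test in any comparison. A call is an adjusted p under 0.05 in limma's test (Benjamini-Hochberg over the 210 miRNAs). Over the 12 groups together 0 of 3 members were called by limma's F test, with an adjusted p of 0.701 for miR-106b, 0.519 for miR-93 and 0.426 for miR-25, where 2.38% of the 210 miRNAs were called. Among the 4 groups of a slide, 0 of 3 were called on slide 1 (0.476% of all), slide 2 (0.952%) and slide 3 (0.952%). The smallest of these values was that of miR-93 on slide 3 (unadjusted p 0.0397, limma adjusted p 0.571), where 7.14% of all miRNAs had an unadjusted p under 0.05.
Across the 18 pairwise comparisons 0 of the 54 differences of members were called, against 1.51% over all miRNAs and comparisons. An unadjusted p under 0.05 was reached by 3 of the 54, against 11.4% over all, and the 2 groups did not overlap in 18 of the 54, against 40.9%. The SE of a member's difference was between 0.19 and 0.22. The 95% intervals of the 54 differences lay between -0.98 and 0.79, so none reached a change of 2-fold in either direction.

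**Figure D3:**
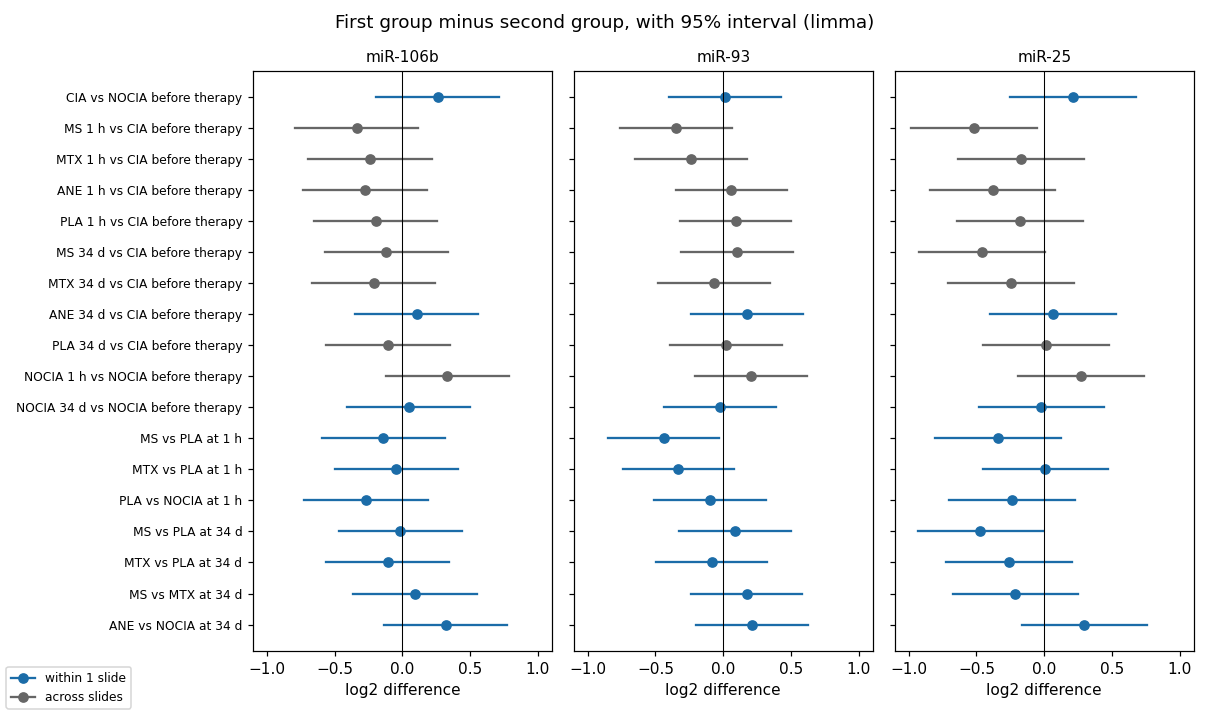
Log2 difference of the first minus the second group (x axis) with its 95% interval from limma for the 18 comparisons (y axis), for each member, with comparisons within 1 slide in blue and across slides in grey. All 54 intervals lie between -0.98 and 0.79, and the 3 that exclude 0 belong to miR-25 (MS at 1 h against CIA, MS against PLA at 34 days) and miR-93 (MS against PLA at 1 h).

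Before therapy, CIA was compared with NOCIA. The CIA animals had also received collagen in Freund's adjuvant, so immunisation and arthritis cannot be told apart here. miR-106b was at 10.71 and 10.22 in CIA and at 10.19 and 10.22 in NOCIA. miR-93 was at 9.46 and 9.04 in CIA and at 9.20 and 9.27 in NOCIA. miR-25 was at 10.36 and 10.10 in CIA and at 9.99 and 10.05 in NOCIA. CIA replicate 1 was the higher of the CIA arrays in all 3 members, and only miR-25 did not overlap, as 58.6% of all miRNAs did not. The differences were 0.26 (95% interval -0.19 to 0.71) for miR-106b, 0.014 (-0.40 to 0.43) for miR-93 and 0.21 (-0.25 to 0.67) for miR-25, and 0 of 3 were called by limma, where 0.952% of all were. The values rest on CIA replicate 1: without it miR-106b was at 0.013, miR-25 at 0.081 and miR-93 at -0.20, and without CIA replicate 2 they were at 0.51, 0.34 and 0.22. The sign for miR-93 also turned with quantile normalization, the authors' table and normexp background correction. The summed red cell markers were 4306 on the lower and 27062 on the higher of the CIA arrays, given without regard to replicate number. Their part was not tested.

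At 1 h of MS the members lay lower than in CIA before therapy, a comparison across slides. miR-106b was at 10.05 and 10.21 in MS, miR-93 at 8.88 and 8.92, and miR-25 at 9.38 and 10.05. All of these values lay below both CIA arrays of the same miRNA, and 32.9% of all miRNAs also did not overlap. The differences were -0.34 (95% interval -0.79 to 0.12) for miR-106b, -0.35 (-0.76 to 0.062) for miR-93 and -0.52 (-0.98 to -0.055) for miR-25. miR-25 had an unadjusted p of 0.031 by limma (adjusted p 0.366), as 12.9% of all miRNAs had one under 0.05, and 0 of 3 were called where 0% of all were. The value of miR-25 rests on the first MS array. Without MS replicate 1 the difference was -0.18, and without MS replicate 2 it was -0.85 and was called (limma adjusted p 0.0226), where the lone MS array is assumed to vary like the other groups. The other members rest on CIA replicate 1: without it miR-106b was at -0.088 and miR-93 at -0.14, and without CIA replicate 2 they were at -0.58 and -0.56. Without scaling all 3 turned to the other direction (0.56, 0.54 and 0.38 for miR-106b, miR-93 and miR-25), as did miR-93 with the authors' table (0.078) and with normexp (0.12). The other arthritic arms at 1 h, also across slides, gave differences from CIA in the same order of members. These were -0.24, -0.24 and -0.17 in MTX, -0.28, 0.060 and -0.38 in ANE, and -0.20, 0.091 and -0.18 in PLA. Of the 5 leukocyte markers, miR-150 (-1.65), miR-342-3p (-1.28) and miR-146a (-1.30) also lay lower in MS without overlap. None of these 3 was called (limma adjusted p between 0.318 and 0.434). The arrays overlapped for miR-142-3p (0.096) and miR-142-5p (-0.17). The part of these markers in the members' values was not tested.
Within slide 3, MS was set against PLA at 1 h. PLA was at 10.51 and 10.03 for miR-106b, at 9.35 and 9.32 for miR-93 and at 10.23 and 9.88 for miR-25. Only for miR-93 did both MS arrays lie below both PLA arrays, while 24.3% of all miRNAs did not overlap. The differences were -0.14 (95% interval -0.59 to 0.31) for miR-106b, -0.44 (-0.85 to -0.029) for miR-93 and -0.34 (-0.80 to 0.12) for miR-25. miR-93 had an unadjusted p of 0.0375 by limma (adjusted p 0.468), as 9.52% of all miRNAs had one under 0.05, and 0 of 3 were called where 0.952% of all were. Both probes of miR-93 lay lower in MS, by -0.45 and -0.44. The median difference of all 210 miRNAs was -0.22 here, and scaling to all miRNAs on the array, or no scaling, turned the sign of all 3 members. The value of miR-25 rests on MS replicate 1: it was -0.0038 without that array and -0.68 without MS replicate 2. That of miR-106b was 0.099 without PLA replicate 1. Red cell miR-451 was also lower in MS without overlap (13.02 against 14.08, limma adjusted p 0.789), and its part was not tested.

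At 34 days of MS, miR-25 lay lower than in PLA of the same slide while miR-106b and miR-93 lay close to it. miR-25 was at 9.78 and 9.77 in MS and at 10.26 and 10.23 in PLA, and the groups did not overlap. miR-106b was at 10.40 and 10.29 in MS and at 10.37 and 10.34 in PLA, and the MS arrays lay on either side of the PLA arrays. miR-93 was at 9.51 and 9.19 in MS and at 9.33 and 9.19 in PLA, again with overlap. One member of 3 did not overlap here, and 71% of all miRNAs did not.
The difference of miR-25 was -0.47 (SE 0.22, 95% interval -0.93 to -0.0079, unadjusted p 0.0467, limma adjusted p 0.12), while 40% of all miRNAs had an unadjusted p under 0.05. Both probes of miR-25 lay lower, by -0.58 and -0.44. The differences were -0.014 (95% interval -0.47 to 0.44) for miR-106b and 0.085 (-0.33 to 0.50) for miR-93. By limma 0 of 3 were called, as were 0% of all miRNAs. Without scaling the direction of miR-25 turned (0.57), and miR-106b (1.03, limma adjusted p 0.0255) and miR-93 (1.13, limma adjusted p 0.0307) were called higher. The median of all 210 miRNAs then lay 1.13 higher in MS, and the share of all called without scaling is not given here. On the same slide, miR-25 was at 9.83 and 10.14 in MTX at 34 days. Its difference of MTX from PLA was -0.26 (95% interval -0.72 to 0.20), and 0.18 without scaling. That of miR-106b was -0.11 and that of miR-93 was -0.087. miR-25 thus lay lower than in PLA in both treated arms.
Against CIA before therapy, across slides, MS at 34 days gave -0.46 (95% interval -0.92 to 0.0043, limma adjusted p 0.106) for miR-25, -0.12 (-0.57 to 0.33) for miR-106b and 0.10 (-0.31 to 0.51) for miR-93. One member of 3 did not overlap (68.6% of all miRNAs did not), and 0 of 3 were called while 19% of all were. Both comparisons of MS at 34 days share the MS arrays and are not independent. Without any scaling all 3 were called higher, at 0.73 for miR-25 (limma adjusted p 0.0293), 1.07 for miR-106b (0.0189) and 1.30 for miR-93 (0.0155). The share of all miRNAs called without scaling is not given here. The median of all 210 miRNAs then lay 1.29 higher in MS at 34 days than in CIA, and relative to that median miR-25 was at -0.56, miR-106b at -0.22 and miR-93 at 0.0062.

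The leukocyte markers miR-150, miR-342-3p and miR-146a also lay lower on the MS arrays of 34 days. miR-150 had a mean of 10.99 in MS at 34 days, 13.27 in PLA at 34 days and 13.42 in CIA before therapy. miR-342-3p had means of 9.84, 10.77 and 11.13 in the same groups, and miR-146a of 7.86, 9.33 and 9.39. None of these 3 was called against either group (limma adjusted p between 0.0526 and 0.143). The summed intensity of the 5 leukocyte markers, with the lower array first, was 16187 and 18535 in MS at 34 days. It was 24014 and 26508 in PLA at 34 days, and 24261 and 28179 in CIA. The pan-leukocyte miR-142-3p had means of 13.56, 13.53 and 13.44 in MS at 34 days, PLA and CIA, and miR-142-5p of 9.74, 10.13 and 9.92. miR-223 of myeloid cells had a mean of 13.33 in MS at 34 days against 12.43 in CIA, and this difference of 0.89 was called (limma adjusted p 0.0383). Against PLA, with a mean of 12.92, the difference of 0.41 was not called (limma adjusted p 0.22). Platelet miR-126 had means of 7.15, 5.86 and 5.98 in MS at 34 days, PLA and CIA, without overlap and not called (limma adjusted p 0.0701 and 0.0663). miR-451 of red cells had means of 12.57 in MS at 34 days, 14.11 in PLA and 13.37 in CIA. Red cell miR-144 had means of 8.10, 9.11 and 7.87 in the same groups. In MS it thus lay lower than in PLA but slightly higher than in CIA. The part of these markers in the values of miR-25 was not tested.

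In the other arms, too, no member was called. In ANE against NOCIA at 34 days, within slide 2, all 3 members lay higher without overlap, and 40.5% of all miRNAs did not overlap, in either direction. The ANE animals were immunised, arthritic and given isoflurane, and the parts of these cannot be told apart here. ANE was at 10.49 and 10.65 for miR-106b against 10.25 and 10.25 in NOCIA, at 9.39 and 9.45 for miR-93 against 9.11 and 9.30, and at 10.15 and 10.45 for miR-25 against 9.98 and 10.02. The differences were 0.32 (95% interval -0.13 to 0.77), 0.21 (-0.20 to 0.62) and 0.30 (-0.17 to 0.76), and 0 of 3 were called by limma, as were 0% of all. Scaling to all miRNAs on the array turned the sign of all 3. The red cell markers lay higher in ANE too, without overlap: miR-451 had means of 14.70 and 13.24 and miR-144 of 9.67 and 8.65 in ANE and NOCIA. Neither was called (limma adjusted p 1 for each), and their part in the members' values was not tested.
Of the remaining comparisons with CIA before therapy, 0 of 3 members were called for MTX at 1 h (1.43% of all miRNAs were), ANE at 1 h (0.476%), PLA at 1 h (0.952%), and for MTX, ANE and PLA at 34 days (0% each). In healthy animals 0 of 3 were called at 1 h (2.38% of all) and at 34 days (0.952%) against before therapy. Between arms, 0 of 3 were called for MTX against PLA at either time, PLA against NOCIA at 1 h and MS against MTX at 34 days (0% of all in each).

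The members were also set against each other on each array, since a ratio within an array does not depend on its scaling. Ratios are given as log2 minus their median over the 24 arrays. Their SD was 0.16 for miR-106b over miR-93, 0.16 for miR-106b over miR-25 and 0.23 for miR-93 over miR-25. Over all 8646 pairs of miRNAs detected on every array the median SD of a ratio was 0.47, and 4.96%, 3.98% and 12.8% of pairs had a smaller SD than these 3.
The ratio of miR-106b over miR-25 was at 0.37 and 0.29 in MS at 34 days, at 0.018 and 0.034 in MTX, at -0.12 and -0.13 in PLA of the same time, and at -0.025 and 0.22 in ANE at 1 h. The MS arrays were thus the highest of slide 1 and the PLA arrays the lowest. The exact permutation test over the 105 divisions of the 8 arrays into pairs gave p = 0.0286 for slide 1, and the p adjusted over the 9 ratio tests was 0.257. The ratio of miR-93 over miR-25 was at 0.56 and 0.26 in MS at 34 days against -0.086 and -0.20 in PLA, and its exact permutation p on slide 1 was 0.0952 (adjusted 0.429). The p of slide 1 for miR-106b over miR-25 was 0.171 without MS replicate 1 and 0.152 without MS replicate 2. The other 7 exact tests gave p between 0.171 and 0.829. The smallest p this test can give is 0.00952, so a single ratio could not go below 0.0857 after adjustment over the 9 tests, and the adjusted values cannot show whether a ratio differed between groups.

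**Figure D4:**
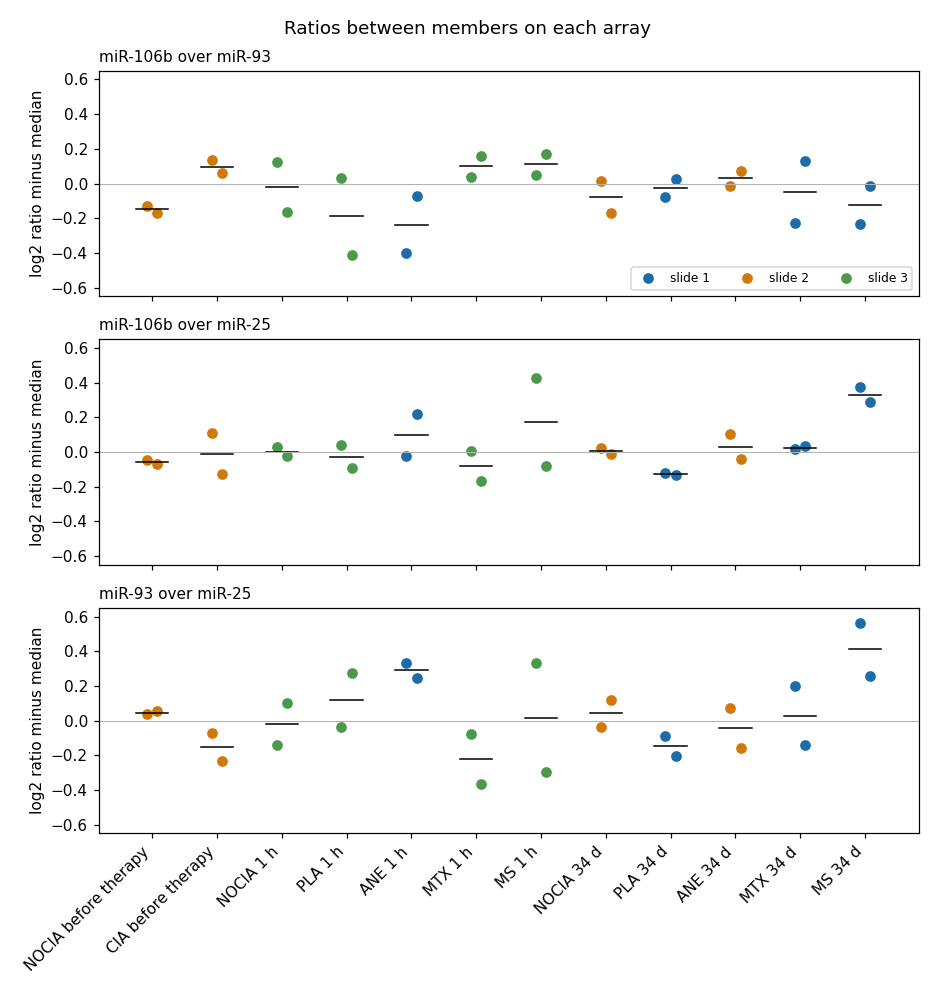
Log2 ratio between 2 members on each array minus its median over the 24 arrays (y axis), by group (x axis), where points are arrays coloured by slide and bars are means of the 2 arrays. The ratio of miR-106b over miR-25 was 0.37 and 0.29 in MS at 34 days against -0.12 and -0.13 in PLA on the same slide, and it was also high on 1 of the 2 MS arrays at 1 h (0.43).

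Across the 24 arrays miR-106b went with both of its neighbours. Pearson's r was 0.77 between miR-106b and miR-25 (permutation p 1e-05, the smallest these resamples can give, adjusted p 3e-05) and Spearman's rho 0.68 (permutation p 0.0003, adjusted p 0.0009). Between miR-106b and miR-93 r was 0.67 (permutation p 0.00032, adjusted p 0.00048) and rho 0.65 (permutation p 0.00084, adjusted p 0.00126). Between miR-93 and miR-25 r was 0.49 (permutation p 0.0144, adjusted p 0.0144) and rho 0.35 (permutation p 0.0939, adjusted p 0.0939). The values were adjusted over these 3 pairs. The permutations shuffled all 24 arrays freely, so their p does not account for groups, slides or the scaling that all miRNAs of an array share. The median r over all 8646 pairs of miRNAs detected on every array was 0.16, and 87.0%, 78.3% and 66.9% of pairs had a lower r than these 3.
Within slides 1, 2 and 3, r was 0.57, 0.93 and 0.83 for miR-106b with miR-25, 0.42, 0.84 and 0.74 for miR-106b with miR-93, and -0.12, 0.73 and 0.67 for miR-93 with miR-25. Between the 2 replicates of a group the members also differed together, with r of 0.78, 0.64 and 0.48 over the 12 replicate differences. Without the 2 arrays farthest from the median of the first miRNA, r was 0.70, 0.53 and 0.16, so the relation of miR-93 with miR-25 rests on those arrays. After quantile normalization r was -0.11 for miR-106b with miR-93 and -0.11 for miR-93 with miR-25, so those 2 relations depend on the scaling.

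The miRNAs whose group means were most like those of the members were not the cluster's seed relatives. Over the 12 group means and among 129 other miRNAs detected on every array, miR-25 was most like miR-16 (r = 0.98), miR-15b (0.94) and miR-532-3p (0.88). miR-106b was most like miR-15b (0.81), miR-140 (0.79) and miR-16 (0.78), beside an r of 0.79 with miR-25 and 0.70 with miR-93. miR-93 was most like let-7c (0.77), miR-140* (0.69) and let-7b (0.67).

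The cluster's relatives were the 6 mature miRNAs of the cluster that holds miR-17 and miR-92a, miR-20b-5p and miR-363 of the miR-106a-363 cluster, and the single genes miR-32 and miR-92b. Of these 10, 9 were tested, and miR-92b was detected on 1 array. Over the 24 arrays the r of miR-25 was -0.66 with miR-17-5p, -0.64 with miR-20a, -0.59 with miR-92a and -0.70 with miR-32, and it was 0.62 with miR-363. miR-92a, miR-32 and miR-363 carry the seed of miR-25 printed above. The r of miR-106b with the 3 miRNAs of its own seed was -0.26 (miR-17-5p), -0.19 (miR-20a) and -0.20 (miR-20b-5p), and that of miR-93 was 0.26, 0.25 and 0.21. With the leukocyte markers miR-150, miR-342-3p and miR-146a, miR-25 had an r of 0.73, 0.73 and 0.75. For miR-106b r was 0.32, 0.32 and 0.33, and for miR-93 it was -0.090, -0.065 and -0.029. With miR-142-3p and miR-142-5p, miR-25 had an r of 0.17 and 0.54. That of miR-106b was 0.17 and 0.28, and that of miR-93 was 0.087 and 0.020. With miR-451 of red cells r was 0.75 for miR-106b, 0.68 for miR-25 and 0.49 for miR-93. With red cell miR-144 it was 0.54, 0.40 and 0.48 in the same order of members. With myeloid miR-223 it was -0.32, -0.50 and 0.22, and with platelet miR-126 it was -0.31, -0.63 and 0.10. These correlations are descriptions over arrays that share their scaling.

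**Figure D5:**
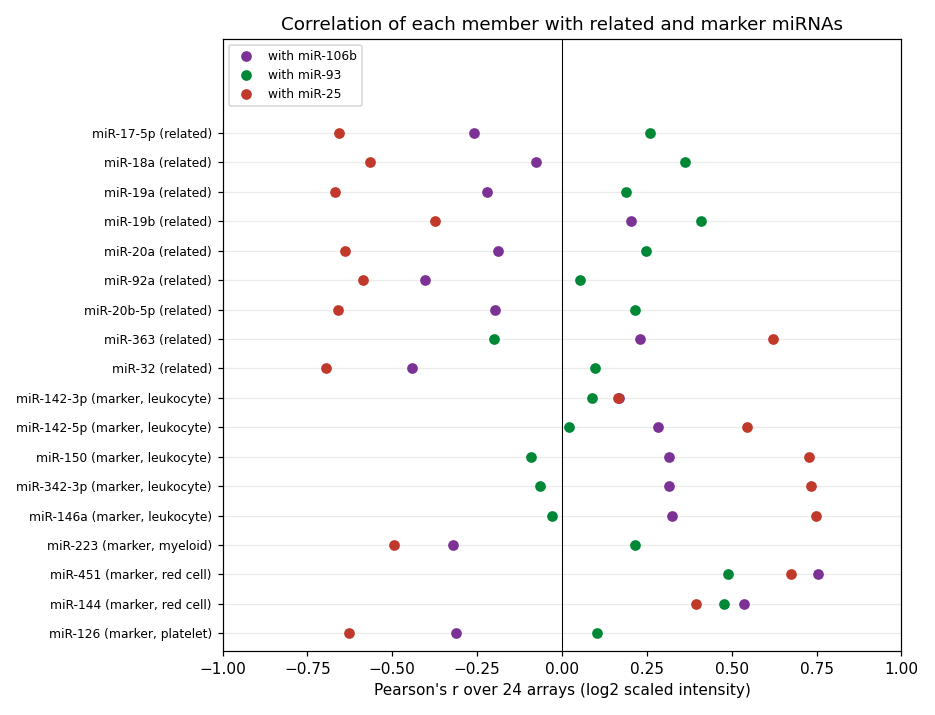
Pearson's r over the 24 arrays (x axis) of each member with the 9 tested relatives and the 9 marker miRNAs detected on every array (y axis), with a colour for each member. miR-25 lies at or below -0.37 with 8 of the 9 relatives and between 0.73 and 0.75 with miR-150, miR-342-3p and miR-146a, while miR-93 lies near 0 with those 3 markers.

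In MS at 34 days against CIA before therapy 5 of the 9 relatives were called higher by limma and 0 lower, where 15.7% of all 210 miRNAs were called higher. miR-17-5p had means of 11.25 and 10.39, a difference of 0.86 (SE 0.23, limma adjusted p 0.0383). miR-20a differed by 0.82 and miR-20b-5p by 0.71, each with a limma adjusted p of 0.0383. miR-19a differed by 1.26 (limma adjusted p 0.0407) and miR-32 by 1.92 (limma adjusted p 0.0406). The median of the 9 relatives was 0.82, that of the 3 members -0.12 and that of all 210 miRNAs 0.16. Whether members and relatives differed from each other was not tested. The 5 calls depend on single arrays: 0 relatives were called without MS replicate 1, without CIA replicate 1 or without CIA replicate 2, and 8 were called without MS replicate 2. In the other 17 comparisons 0 of the 9 relatives were called, and in MS against PLA at 34 days their median was 0.81 beside -0.014 for the members.

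The opposite arms of the 3 hairpins were at or near the limit of the array. rno-miR-93* and rno-miR-25*, the arms shown second in Mir93 and first in Mir25, were detected on 0 of 24 arrays. rno-miR-106b* was detected on 7, namely both arrays of MS at 34 days, both of ANE at 34 days and 1 each of NOCIA, MS and PLA at 1 h. Its scaled level was never above 2.87 (log2), against a floor of 2.53, so its values give no order of groups.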

How the data were processed

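Per the file headers, spots were extracted by Agilent Feature Extraction version 10.7.3.1, and the deposited intensity values (total signal per miRNA, linear) were background-corrected but not normalised between arrays. The detection flag deposited beside each intensity is of another kind, a 0 or 1 set by the software. The authors also deposited a log2 table of the same 24 arrays whose normalisation is not given in the sources used here. Its 24 columns each matched their own array best.

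Each array was scaled to 1 common 75th percentile, taken from the 132 miRNAs with detection on all arrays (factors 0.452 to 1.42), set to a floor of 5.76 and taken to log2. A detection flag on at least 3 arrays left 210 miRNAs, which were fitted with limma 3.58.1 (R 4.3.3, lmFit and eBayes, 12 group means), with Benjamini-Hochberg adjustment. The fit was tested on simulated data. Ratios were tested by exact permutation of an F statistic, which has no direction, and correlations by 100000 resamples, two-sided (numpy 2.4.6, Python 3.11.15). Their p were adjusted with scipy 1.17.1. With 2 arrays per group, their number limits the precision.

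Groups came from the labels. AP is MS there, NORA is NOCIA and RA is CIA. For NOCIA at 34 days 1 label line names 1 hour, and the title's 34 days was used. Named beside the members were the opposite arms, seed relatives and paralogs, markers, and the 3 miRNAs most like each member. The members and lists were chosen with earlier results of these data known.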

Additional observations from a re-analysis of the deposited data

How the results depend on the processing

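The count of 0 members called in each of the 18 comparisons, and by the 4 F tests over groups, held under each scaling, table, filter and floor tried, under the study's threshold, with the replicate number as a block, in a fit of only the arrays compared and with each array left out, apart from the following. Without scaling, 3 members were called in MS at 34 days against CIA and 2 in MS against PLA at 34 days, where the median of all miRNAs moved up by 1.29 and 1.13. The share of all miRNAs called in these 2 fits is not given here. Leaving out 1 array gave 0 to 1 in MS at 1 h against CIA. The slide as a block could not be fitted, since each group lies on 1 slide. The replicate numbers share only a number: the deviations of same-numbered arrays from their group means correlated between -0.77 and 0.84 (median -0.034 over 66 pairs of groups). With the replicate block 0 members were called in every comparison. Every group holds an array of each number, so this block could not change a difference or its sign.

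Signs of differences that were not called were less stable, and the cause was not tested. Of the 54, 28 changed sign without scaling, 19 with scaling to all miRNAs, 12 with quantile normalization and 11 each with the authors' table and with normexp. In the 6 comparisons whose values the report gives one by one, those that changed sign without scaling were 0.56, 0.54 and 0.38 for miR-106b, miR-93 and miR-25 in MS at 1 h against CIA, 1.07 and 0.73 for miR-106b and miR-25 in MS at 34 days against CIA, 0.32, 0.023 and 0.12 for miR-106b, miR-93 and miR-25 in MS against PLA at 1 h, and 1.03 and 0.57 for miR-106b and miR-25 in MS against PLA at 34 days. With scaling to all miRNAs they were, in the same 6 comparisons, 0.69, 0.39 and 0.49 for miR-106b, miR-93 and miR-25 in MS against PLA at 1 h, -0.0040, -0.11 and -0.027 in ANE against NOCIA at 34 days, and for miR-93 -0.094 in MS at 34 days against CIA and -0.15 against PLA. Among these 6 with quantile normalization miR-93 was at -0.14 in CIA against NOCIA. With the authors' table miR-93 was at -0.098 in CIA against NOCIA and 0.078 in MS at 1 h against CIA, and miR-106b was at 0.035 and 0.093 in MS against PLA at 1 h and 34 days. With normexp miR-93 was at -0.18 in CIA against NOCIA, 0.12 in MS at 1 h against CIA and -0.077 in ANE against NOCIA at 34 days. In these alternatives miR-25 stayed lower in MS at 34 days except without scaling.

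Leaving out each array in turn gave -0.20 to 0.22 for miR-93 in CIA against NOCIA, -0.37 to 0.13 for miR-106b and -0.11 to 0.31 for miR-93 in MS at 34 days against CIA, -0.38 to 0.099 for miR-106b in MS against PLA at 1 h, and -0.065 to 0.037 for miR-106b and -0.074 to 0.24 for miR-93 in MS against PLA at 34 days. The values that kept their sign with each array left out ranged from 0.013 to 0.51 for miR-106b and 0.081 to 0.34 for miR-25 in CIA against NOCIA, from -0.58 to -0.088, -0.56 to -0.14 and -0.85 to -0.18 for miR-106b, miR-93 and miR-25 in MS at 1 h against CIA, from -0.46 to -0.42 for miR-93 and -0.68 to -0.0038 for miR-25 in MS against PLA at 1 h, from -0.59 to -0.33 against CIA and -0.48 to -0.46 against PLA for miR-25 in MS at 34 days, and from 0.24 to 0.40, 0.12 to 0.31 and 0.15 to 0.45 for miR-106b, miR-93 and miR-25 in ANE against NOCIA. The adjusted p of a single ratio could not pass, so it says nothing about stability. The exact p for miR-106b over miR-25 on slide 1 was 0.0381 from the mean of log2 spot signals, 0.019 from the authors' table and 0.00952 to 0.171 with each array of the slide left out, the last chosen after seeing the data. The correlation of miR-106b with miR-25 kept its direction and its side of 0.05. That of miR-106b with miR-93 was -0.11 with quantile normalization. That of miR-93 with miR-25 was -0.11 with quantile normalization and 0.098 with the authors' table, and 0.36 to 0.60 with each array left out, no longer passing without NOCIA replicate 2 or MS replicate 1 at 1 h. The 5 relatives called in MS at 34 days against CIA became 8 without scaling, 3 with normexp, and 0 with scaling to all miRNAs, with quantile normalization, with no filter and with only the arrays compared, and 0 to 8 with each array left out. These alternatives for the relatives were chosen after seeing the data, and the shares of all miRNAs called under them are not given.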
